A study of Mus musculus with 6 samples.

Results

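The genes described here are those of the p53 response and of apoptosis: p53 itself (Trp53) with its inhibitors, genes that p53 is known to switch on, the BCL2 family, initiator caspases, death receptors and inhibitor of apoptosis proteins. The 35 genes were taken by symbol from a table of 24964 gene symbols, and all 35 were found and reached the level needed for testing, a mean of 1 FPKM over the libraries. FPKM divides the fragments of a gene by gene length and library size, so levels of different genes can be set side by side within a library. The RNA came from mouse uterus of gestation day 13, taken around the implanted embryos, in 6 samples. The labels name 3 of them as control and 3 as myometrial PGR knockout, PGR being the progesterone receptor and the myometrium the smooth muscle wall. The sources used here do not state strain, age, the alleles carried, the driver of the deletion or whether each library came from its own animal, so p-values reflect only how these libraries scatter, and that scatter may be technical.

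As background, p53 is a transcription factor that stress such as DNA damage stabilises, and it drives genes that stop the cell cycle, repair DNA or start apoptosis. MDM2 marks p53 for degradation and is itself a p53 target, which closes a feedback loop. In the mitochondrial route to apoptosis, BH3-only proteins bind and block the pro-survival BCL2 proteins or act on BAX and BAK directly. BAX and BAK then form pores in the outer membrane, and the released cytochrome c leads to activation of caspase-9. Death receptors at the cell surface start a second route through caspase-8. In the pregnant uterus, apoptosis is known from the regressing epithelium and decidua around the embryo. These proteins are controlled to a large part after transcription, so RNA levels do not measure p53 activity or cell death.

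The targeted gene does not bear out the labels over its whole length. Pgr measured 9.72, 8.33 and 12.1 FPKM in control libraries 1 to 3 and 11.3, 12.4 and 7.73 FPKM in libraries 1 to 3 labelled deficient, and these ranges overlap. Its difference in log2(FPKM + 1) was 0.05 (SE 0.19, limma adjusted p = 0.91). No source used here states which part of Pgr was removed, and the tissue was not muscle alone. The second group is therefore called the libraries labelled deficient. The summed FPKM per library lay between 357100 and 377100, and the depth of single libraries is unknown. On the log2 scale over 12500 genes, which are not independent replicates, the third library of each group correlated with the other libraries of its group at between 0.971 and 0.983, and those others with each other at 0.991 and 0.992. Results are therefore also given without library 3 of both groups.

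Of the 35 genes, 3 rose in the libraries labelled deficient and 0 fell. The 3 were Cdkn1a, the cell cycle inhibitor p21, Pmaip1, the BH3-only protein NOXA, and Trp53inp1, a stress-induced nuclear protein that enhances p53 function. The call rested on limma with a Benjamini-Hochberg adjusted p under 0.05 over 12500 genes. This is 8.57% of the members, where 3.34% of all genes tested passed (417 genes) and 1.34% passed as higher. Rises of 0.65, 0.47 and 0.45 on the log2(FPKM + 1) scale were moderate for this table: 73, 109 and 114 called genes rose further. All 3 were also called under each other scaling of the libraries and without library 3 of both groups. In the fit without library 3 of both groups the share of members called was again 8.57%. Of all genes, 10.2% were called in that fit, 4.95% as higher. Leaving out single libraries ended most of these calls: Cdkn1a and Pmaip1 passed in 1 of 6 such fits, the one without deficient 3, and Trp53inp1 in 0 of 6. Over the 6 fits the adjusted p lay between 0.030 and 0.12 for Cdkn1a and between 0.034 and 0.10 for Pmaip1, while both stayed higher.

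A wider set of members was separated between the groups, the 3 called genes and 12 that did not pass the test. In 14 members every library labelled deficient lay above every control, and in 1, Fas, every one lay below. Together that is 15 of 35 (42.9%), where 29.0% of all genes tested were separated, 20.8% upwards and 8.16% downwards. At an unadjusted p under 0.05 there were 13 higher members and 1 lower (40.0%), against 21.5% of all genes, 14.4% higher and 7.09% lower. The median difference of the 35 members was 0.125 on the log2 scale and that of all genes tested 0.06, and 77.1% of members against 64.9% of all genes had a positive difference. The separation depended on how libraries were scaled. With median-of-ratios scaling 9 members lay higher and 3 lower, beside 11.4% and 13.1% of all genes, and with quantile normalization 11 and 3, beside 12.8% and 11.6%. Rescaling to equal sums gave 16 higher and 1 lower, beside 27.3% and 6.21%. Cdkn1a, Pmaip1, Trp53inp1, Bbc3, Bcl2l11, Bcl2, Ccng1, Btg2 and Birc2 lay above every control under all of these scalings, and Fas below. The other members lower under median-of-ratios scaling were Bax and Bid, and under quantile normalization Bid and Zmat3.

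**Figure D1:**
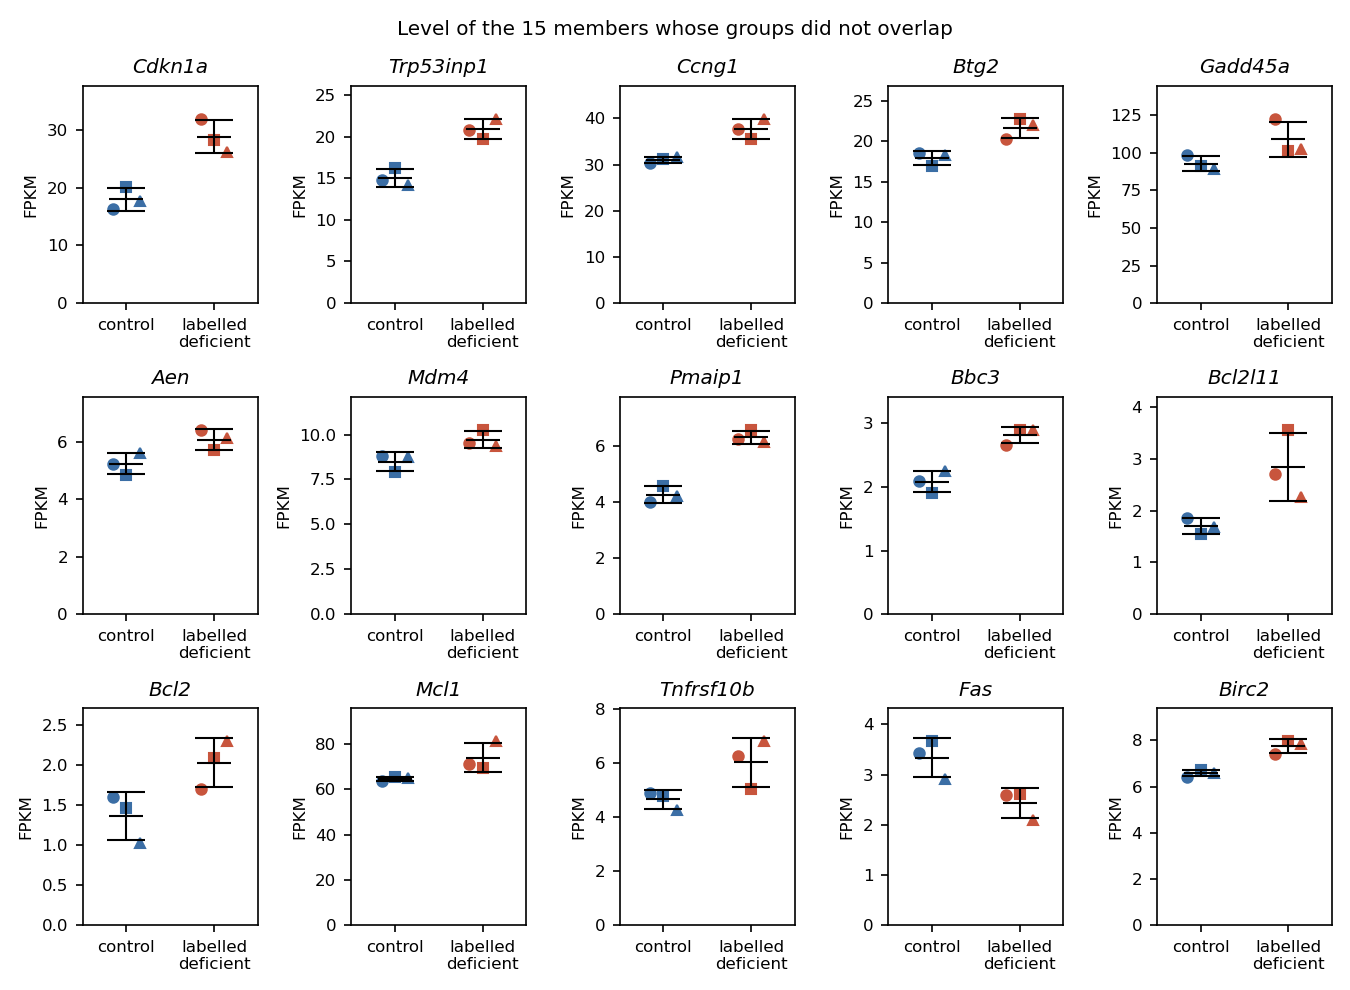
Levels in FPKM (vertical axes, each from 0) of the 15 members whose groups did not overlap, in control libraries (blue) and libraries labelled deficient (red). Circle, square and triangle are libraries 1, 2 and 3 of a group, and black bars give the mean and SD (n = 3). Cdkn1a goes from between 16.3 and 20.1 FPKM to between 26.3 and 32.0 FPKM, and Fas is the panel in which the red points lie lower.

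Levels of the members differed widely. Of the 35, 6 had a mean under 5 FPKM over all libraries, 20 lay from 5 to below 20 FPKM and 9 reached 20 FPKM. Gadd45a, a stress sensor that binds cell cycle proteins, was the highest at a mean of 100.9 FPKM, above 96.3% of the genes tested. The pro-survival gene Mcl1 followed at 69.4 FPKM. At the other end, Bcl2 had a mean of 1.70 FPKM, above 8.4% of the genes tested, next to Bcl2l11 (2.28 FPKM) and Bbc3 (2.45 FPKM).

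In what follows, values per library are for libraries 1, 2 and 3 of a group, controls first. Trp53 did not pass the test. It measured 28.7, 26.2 and 20.3 FPKM in control libraries 1 to 3 and 28.6, 31.8 and 26.6 FPKM in libraries 1 to 3 labelled deficient. The groups overlap, and control 3 is the lowest library. The log2 difference was 0.21 (SE 0.14, 95% interval from -0.11 to 0.54, limma adjusted p = 0.41), and it was 0.08 without control 3. Mdm2 measured 12.6, 13.7 and 13.1 FPKM in control libraries 1 to 3 and 14.2, 13.7 and 14.8 FPKM in libraries 1 to 3 labelled deficient, 13.2 ± 0.6 against 14.2 ± 0.5 FPKM (SD, n = 3 each). Its groups touch, with control 2 just above deficient 2, and its difference of 0.11 (SE 0.06, limma adjusted p = 0.38) has a 95% interval from -0.04 to 0.25. Mdm4, a relative of MDM2 that binds p53 and holds back its activity, was at 8.82, 7.89 and 8.75 FPKM and at 9.52, 10.2 and 9.37 FPKM, above every control but not past the test (0.18, SE 0.07, adjusted p = 0.21), and with overlapping groups under median-of-ratios scaling and quantile normalization. Within a library, the ratio of Mdm2 to Trp53 was 0.439, 0.525 and 0.648 in the controls and 0.498, 0.430 and 0.555 in the libraries labelled deficient. These ranges overlap, and the highest ratio belongs to control 3, where Trp53 was lowest.

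Cdkn1a encodes p21, which blocks cyclin-dependent kinases and is among the best known p53 targets. GENCODE M21 places the gene on the plus strand of chromosome 17, at 29090976 to 29100727 (GRCm38, the mm10 assembly). Control libraries 1 to 3 held 16.3, 20.1 and 17.7 FPKM of it, and the libraries labelled deficient held 32.0, 28.3 and 26.3 FPKM. The lowest of the latter is above the highest control. The means were 18.0 ± 2.0 and 28.9 ± 2.9 FPKM (SD, n = 3 each), 1.60 times the control level, with a log2 difference of 0.65 (SE 0.10, 95% interval from 0.40 to 0.90, limma adjusted p = 0.030). Under the 17 alternatives the difference stayed between 0.58 and 0.74, and the adjusted p lay between 0.0097 and 0.12. Among all 12500 genes, 1.91% had a larger rise. In an exact permutation test, two-sided, it had p = 0.1, the smallest value that 3 libraries against 3 allow, as it does for each member whose groups do not overlap.

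Trp53inp1 measured 14.8, 16.2 and 14.1 FPKM in control libraries 1 to 3 and 20.8, 19.7 and 22.1 FPKM in libraries 1 to 3 labelled deficient. The 3 values of each group lie close together, with a gap of more than 3 FPKM between the groups. Its mean rose from 15.0 ± 1.0 to 20.9 ± 1.2 FPKM (SD, n = 3 each), 1.39 times, and differed by 0.45 in log2(FPKM + 1) (SE 0.08, limma adjusted p = 0.033). The gene occupies 11156431 to 11174379 of chromosome 4, plus strand (GRCm38). Without a single library the adjusted p lay between 0.057 and 0.14.

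The other 12 p53-induced genes of growth arrest, stress and repair did not pass the test. Ccng1, cyclin G1, was at 30.2, 31.2 and 31.6 FPKM and at 37.7, 35.4 and 39.8 FPKM, above every control with a difference of 0.27 (SE 0.07, limma adjusted p = 0.088). Btg2, an antiproliferative protein that acts in mRNA decay, was at 18.6, 16.9 and 18.3 FPKM and at 20.3, 22.8 and 22.0 FPKM (0.26, SE 0.07, adjusted p = 0.11). Gadd45a was at 98.4, 91.1 and 89.1 FPKM and at 122.6, 101.6 and 102.9 FPKM (0.22, SE 0.09, adjusted p = 0.24). It overlaps E230016M11Rik (mean 2.12 FPKM) on the other strand and may share reads with it. Without deficient 1, the highest library, the difference of Gadd45a was 0.14, and its groups overlapped under median-of-ratios scaling, while Ccng1 and Btg2 stayed apart under every scaling. Aen, a nuclease that takes part in apoptosis, was at 5.23, 4.86 and 5.59 FPKM and at 6.40, 5.70 and 6.12 FPKM (0.18, SE 0.07, adjusted p = 0.22), and its groups overlapped under median-of-ratios scaling and quantile normalization. The other 8 had overlapping groups. Sesn2, a sestrin that restrains mTORC1 under stress, was at 3.96, 3.98 and 5.16 FPKM and at 6.28, 4.54 and 6.99 FPKM, so deficient 2 lay below control 3. Its relative Sesn1 was at 15.4 ± 1.6 and 14.8 ± 2.2 FPKM (SD, n = 3 each). Gadd45b had the largest SE of the members (0.25), with controls from 3.07 to 5.54 FPKM and libraries labelled deficient from 3.78 to 7.51 FPKM. Zmat3, an RNA-binding zinc finger protein, Phlda3, which opposes AKT at the membrane, Perp, a protein of desmosomes, Rrm2b, a ribonucleotide reductase subunit, and the kinase gene Plk2 had means between 96.4% and 111.3% of the control mean. Cdkn1b (p27), the other inhibitor of the p21 family among the members, was at 18.8 ± 0.6 and 19.4 ± 0.5 FPKM (SD, n = 3 each), with a 95% interval of the log2 difference from -0.09 to 0.18.

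Promoter sequence is shown for Cdkn1a, which rose, for Ccng1, which was separated without passing, and for Mdm2, the feedback gene that did not pass. The windows are from RefSeq (GRCm38.p6), run 5′ to 3′ on the gene's own strand and end at the base before an annotated transcript start, 250 bases each. Capitals mark matches to the 10-base p53 half-site consensus, which reads the same on both strands, and, in Cdkn1a, the pair of CATG cores spaced as in CATGNNNNNNCATG, which also reads the same on both strands and whose first core lies within a half-site.
Cdkn1a, upstream start, chr17:29090729-29090978, plus strand: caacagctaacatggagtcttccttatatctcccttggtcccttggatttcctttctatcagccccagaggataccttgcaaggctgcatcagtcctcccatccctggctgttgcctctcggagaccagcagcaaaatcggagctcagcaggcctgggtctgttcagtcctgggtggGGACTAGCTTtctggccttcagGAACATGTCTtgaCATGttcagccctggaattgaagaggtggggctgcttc
Cdkn1a, downstream start, chr17:29093519-29093768, plus strand: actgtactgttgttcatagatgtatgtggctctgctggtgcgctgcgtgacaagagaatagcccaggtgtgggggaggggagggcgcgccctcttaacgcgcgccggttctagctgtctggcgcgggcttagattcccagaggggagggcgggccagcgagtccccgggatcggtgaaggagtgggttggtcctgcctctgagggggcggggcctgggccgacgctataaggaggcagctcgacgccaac
Ccng1, chr11:40755287-40755536, minus strand: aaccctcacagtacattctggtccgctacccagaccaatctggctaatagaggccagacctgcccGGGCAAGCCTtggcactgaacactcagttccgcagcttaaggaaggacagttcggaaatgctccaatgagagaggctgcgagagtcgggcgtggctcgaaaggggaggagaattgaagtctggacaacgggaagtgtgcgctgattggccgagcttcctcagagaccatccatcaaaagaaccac
Mdm2, chr10:117710759-117711008, minus strand: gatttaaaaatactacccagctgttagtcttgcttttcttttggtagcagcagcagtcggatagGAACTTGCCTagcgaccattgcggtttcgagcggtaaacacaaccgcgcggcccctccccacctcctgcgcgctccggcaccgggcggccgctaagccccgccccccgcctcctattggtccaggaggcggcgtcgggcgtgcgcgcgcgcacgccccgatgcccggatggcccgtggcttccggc
The Cdkn1a window holds the run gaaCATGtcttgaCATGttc (chr17:29090928-29090947, cores in capitals), whose first base is 51 bases before the upstream start and 2841 bases before the downstream start. It is the only member window with CATGNNNNNNCATG, which 0.712% of all 32851 windows contain. That spacing was chosen after values were seen and is the spacing of this run, so the match is no test. The Cdkn1a window is also the only member window with a pair of strict half-sites at most 13 bases apart, which 0.0731% of all windows contain. This pair is made of the 10-base half-sites marked in that window, and only the downstream one lies in the run above. The share of 0.0731% is therefore not that of the run. A half-site alone was found in 9 of the 29 members with a window (31.0%), searched from 250 bases before to 50 after the start, against 9.55% of all 27025 symbols. By window, 10 of the 42 member windows held a half-site, against 8.36% of all windows. The members include genes listed because p53 is known to switch them on, so these shares are no test. For Mdm2 the p53 elements known from the literature lie in its first intron, outside this window. Only strict half-sites were searched, and near matches were not counted. In Ccng1 the bases just before the marked half-site, agacctgccc, have c at a place where the consensus has a or t. In Cdkn1a the bases tgaCATGttc begin with t where the consensus has a or g, and only their core is marked. These matches describe letters only, and no binding was measured.

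The strict half-sites of the other members are set beside those of Cdkn1a to show how they vary around the central 4 bases, which are in capitals. All are on GRCm38.p6.
Cdkn1a, chr17:29090906-29090915: ggaCTAGctt
Cdkn1a, chr17:29090928-29090937: gaaCATGtct
Ccng1, chr11:40755462-40755471: gggCAAGcct
Mdm2, chr10:117710935-117710944: gaaCTTGcct
Trp53, chr11:69580284-69580293: ggaCTTGccc
Gadd45a, chr6:67037438-67037447: gggCTAGccc
Sesn1, chr10:41887266-41887275: aagCTTGttt
Aen, chr7:78895937-78895946: gggCTTGtcc
Bax, chr7:45467090-45467099: aggCAAGctt
Birc2, chr9:7836787-7836796: aggCTAGtct
Cdkn1a has the only CATG core among them. Of these 9 genes, 1 rose and the other 8 did not pass the test. Pmaip1 and Trp53inp1, which also rose, had no window and were not searched.

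Of the 5 BH3-only genes, 3 were separated upwards, and 1 of them, Pmaip1, rose. Of all genes tested, 20.8% were separated upwards and 1.34% were called higher. Pmaip1 encodes NOXA, which binds MCL1, and measured 4.01, 4.60 and 4.22 FPKM in control libraries 1 to 3 and 6.25, 6.58 and 6.14 FPKM in libraries 1 to 3 labelled deficient. Both groups were tight, with a gap of more than 1 FPKM between them. The mean went from 4.28 ± 0.30 to 6.33 ± 0.23 FPKM (SD, n = 3 each), 1.48 times, with a log2 difference of 0.47 (SE 0.07, 95% interval from 0.31 to 0.64, limma adjusted p = 0.021). Bcl2l11 encodes BIM, which can bind all pro-survival BCL2 proteins, and was at 1.86, 1.56 and 1.69 FPKM and at 2.71, 3.56 and 2.27 FPKM. Its mean was 1.67 times the control mean, the largest ratio among the members, but its libraries labelled deficient scattered and it did not pass (0.50, SE 0.13, adjusted p = 0.11). Bbc3 encodes PUMA, a p53-induced killer protein, and was at 2.09, 1.91 and 2.25 FPKM and at 2.67, 2.90 and 2.89 FPKM (0.31, SE 0.07, adjusted p = 0.089). The log2(FPKM + 1) scale understates the change of such low genes, and with a pseudocount of 0.1 the differences of Bcl2l11 and Bbc3 were 0.69 and 0.42. Bid, which caspase-8 cleaves to link both routes, and Bad, which growth factor signals switch off, did not show this separation. Bid was at 13.3 ± 0.7 and 12.1 ± 1.1 FPKM and Bad at 14.4 ± 2.2 and 14.0 ± 0.4 FPKM (SD, n = 3 each). Under median-of-ratios scaling and quantile normalization Bid lay below every control in the libraries labelled deficient. Bid and Bad overlap Bcl2l13 and Gpr137 on the other strand and may share reads with them.

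Neither pore-forming gene passed the test. Bax measured 34.4, 37.6 and 30.8 FPKM in control libraries 1 to 3 and 32.5, 33.2 and 32.9 FPKM in libraries 1 to 3 labelled deficient, which all lay within the range of the controls. Its log2 difference was -0.06 with a 95% interval from -0.25 to 0.14. Bak1 was at 22.2 ± 2.9 and 23.4 ± 1.4 FPKM (SD, n = 3 each), with an interval from -0.17 to 0.34. Reads of Bak1 and of Ggnbp1, a gene at a mean of 2.21 FPKM that overlaps it on the other strand, may not be told apart, because no source used here states strandedness. Bax overlaps the gene model Gm45808 on the same strand, which has no level of its own here, so Bax values may include its reads.

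Among the pro-survival genes, Bcl2 and Mcl1 lay above every control and Bcl2l1 (BCL-xL) did not, and 0 of the 3 passed the test. Of all genes tested, 20.8% lay above every control. Bcl2 was at 1.60, 1.46 and 1.02 FPKM and at 1.70, 2.09 and 2.30 FPKM, 1.49 times the control mean (log2 difference 0.36, SE 0.13, limma adjusted p = 0.18). Deficient 1 was only just above control 1, and without library 3 of both groups the difference was 0.19. Mcl1, a short-lived protein whose loss frees BAK, was at 63.7, 65.3 and 65.2 FPKM and at 71.2, 69.6 and 81.4 FPKM (0.19, SE 0.08, adjusted p = 0.23). Its controls lay within 2 FPKM of each other, and deficient 3 was the highest library. Without deficient 3 the difference of Mcl1 was 0.12, and under median-of-ratios scaling it was 0.13 with overlapping groups. Bcl2l1 was at 23.3 ± 1.6 and 22.3 ± 1.7 FPKM (SD, n = 3 each). The ratio of Bax to Bcl2 within a library was 21.4, 25.8 and 30.2 in the controls and 19.1, 15.9 and 14.3 in the libraries labelled deficient, a mean of 25.8 ± 4.4 against 16.4 ± 2.5 (SD, n = 3 each). These ranges do not overlap, and the lower ratio goes with the higher level of Bcl2 while Bax stayed within the control range. No test was made of this ratio.

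The 2 death receptor genes were separated in opposite directions, where 20.8% of all genes tested were separated upwards and 8.16% downwards. Fas measured 3.44, 3.67 and 2.91 FPKM in control libraries 1 to 3 and 2.59, 2.62 and 2.09 FPKM in libraries 1 to 3 labelled deficient, 72.9% of the control mean (log2 difference -0.34, SE 0.10, 95% interval from -0.58 to -0.09, limma adjusted p = 0.14). Tnfrsf10b, the receptor for the ligand TRAIL, was at 4.91, 4.80 and 4.26 FPKM and at 6.26, 5.03 and 6.82 FPKM (0.31, SE 0.11, adjusted p = 0.19). Deficient 2 lay only just above control 1 for Tnfrsf10b, its difference was 0.18 without library 3 of both groups, and its groups overlapped under median-of-ratios scaling and quantile normalization. Neither gene passed the test, and whether their changes differ from each other was not tested. The initiator caspases Casp8 (13.4 ± 1.2 and 14.0 ± 1.0 FPKM) and Casp9 (6.36 ± 0.46 and 6.10 ± 0.93 FPKM; SD, n = 3 each) had overlapping groups.

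Inhibitor of apoptosis proteins bind caspases or, as ubiquitin ligases, steer signals from death receptors. Birc2 (cIAP1) was at 6.43, 6.72 and 6.58 FPKM and at 7.40, 7.97 and 7.86 FPKM, apart under every scaling but not past the test (0.21, SE 0.06, limma adjusted p = 0.12). Birc3 (cIAP2) was at 10.2, 10.3 and 6.98 FPKM and at 10.1, 11.4 and 8.51 FPKM, with the third library lowest in both groups. Xiap, which blocks caspases directly, stayed between 6.57 and 7.08 FPKM over all libraries.

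**Figure D2:**
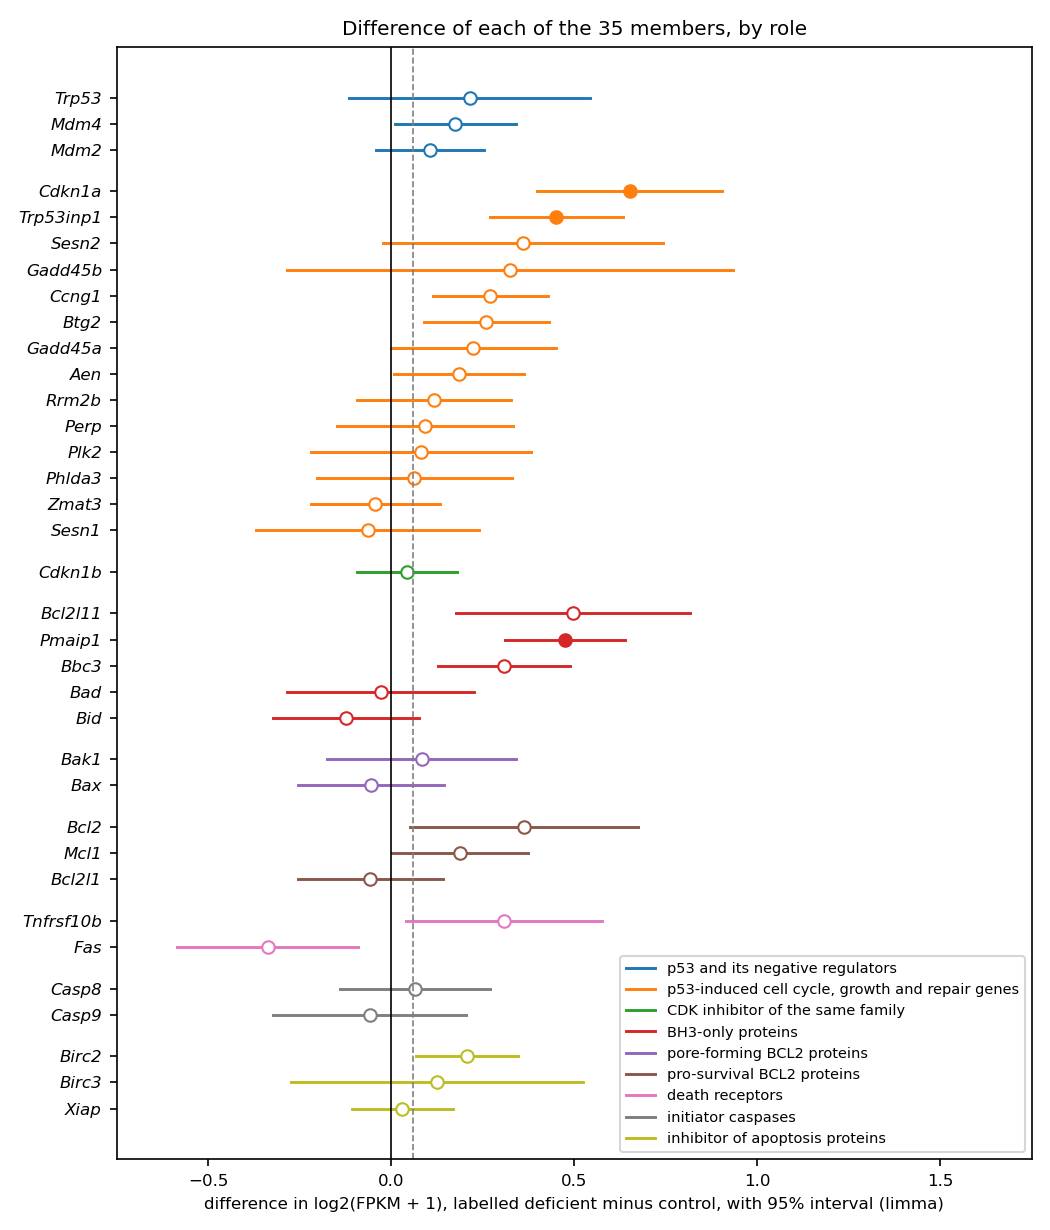
Difference in log2(FPKM + 1), labelled deficient minus control (horizontal axis), of each of the 35 members (vertical axis), grouped and coloured by role. Circles are limma estimates from 3 against 3 libraries, lines their 95% intervals, filled circles an adjusted p under 0.05, and the dashed line the median of all genes tested, 0.06; Cdkn1a, Trp53inp1 and Pmaip1 are filled, and Fas has the lowest estimate at -0.34.

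**Figure D3:**
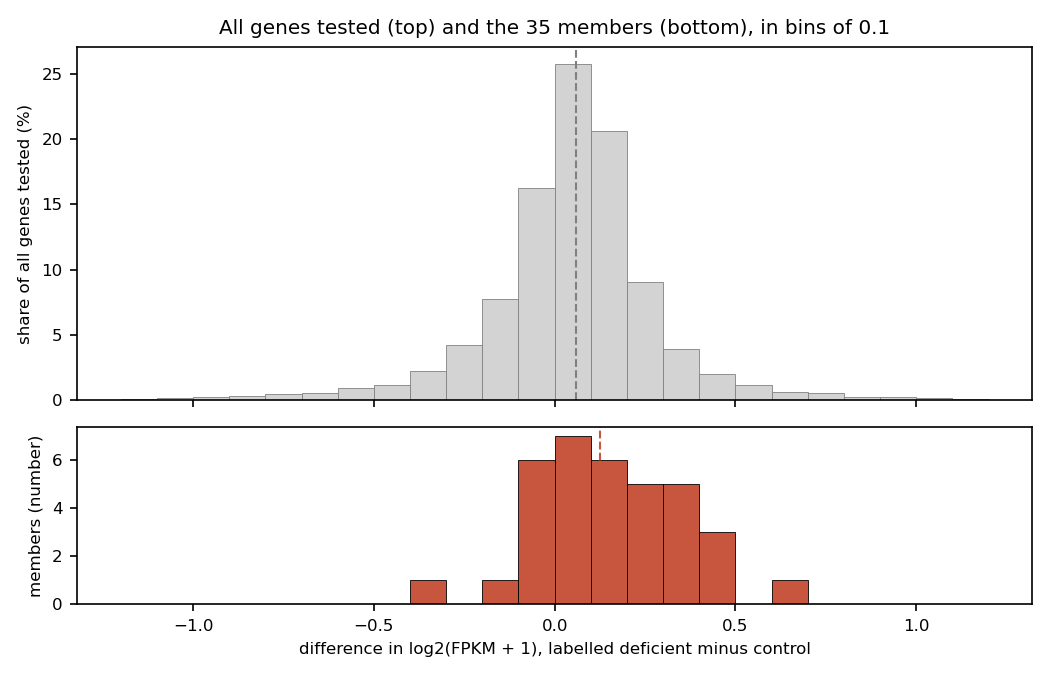
Distribution of the difference in log2(FPKM + 1), labelled deficient minus control, in bins of 0.1, as the share of all 12500 genes tested in percent (top; genes beyond the axis are not drawn) and as the number of members (bottom). Dashed lines are the medians, 0.06 and 0.125, and the member farthest to the right is Cdkn1a at 0.65.

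Few genes of the same pathways outside the members passed the test. Of 137 tested genes in 11 lists, 1 rose and 1 fell (1.46%, against 3.34% of all genes), 34 lay above every control (24.8%, against 20.8% of all genes) and 4 below, and the median difference was 0.06. Without library 3 of both groups, 7 were called higher and 24 lower of 136 tested, where 4.95% and 5.24% of all genes were called, and 16 of the 24 were proliferation genes. Among 35 other p53-induced genes tested, 1 fell and 0 rose, with 8 separated upwards, 1 downwards and a median of 0.11, and 2 rose and 4 fell without library 3 of both groups. The one that fell was Rprm (Reprimo), known as a p53-induced mediator of arrest in G2, and it had the largest change of all these genes. Rprm measured 16.1, 21.7 and 17.5 FPKM in control libraries 1 to 3 and 2.92, 4.09 and 5.58 FPKM in libraries 1 to 3 labelled deficient. The highest of the latter is less than the lowest control by more than 10 FPKM. It differed by -1.92 on the log2 scale (limma adjusted p = 0.0086, SE 0.20) and passed in 6 of 6 fits with a library left out. Ddit4 (REDD1), which restrains mTORC1, was at 8.17, 11.9 and 18.7 FPKM and at 34.9, 39.7 and 21.7 FPKM (1.28, SE 0.33, adjusted p = 0.099), with deficient 3 close to control 3. It passed without library 3 of both groups (1.81, adjusted p = 0.015), but with single libraries left out its limma adjusted p lay between 0.060 and 0.265. Sfn (14-3-3 sigma) was at 12.1 ± 2.5 and 17.9 ± 0.9 FPKM (SD, n = 3 each), a difference of 0.55 (adjusted p = 0.11). Without library 3 of both groups it differed by 0.35 (adjusted p = 0.042). With single libraries left out the limma adjusted p of Sfn lay between 0.062 and 0.24.

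Of 13 tested genes of the p53 family and its upstream regulators, 0 passed and 6 lay above every control, where 20.8% of all genes tested did (median 0.12). Usp7, which removes ubiquitin from MDM2 and p53, was at 16.8, 16.8 and 15.8 FPKM and at 19.8, 19.3 and 19.6 FPKM (0.23, SE 0.06, limma adjusted p = 0.087). Trp53bp1, a protein of DNA break repair, differed by 0.25 (SE 0.07, adjusted p = 0.10). Of 10 other BCL2 family genes, 0 passed, 1 lay above and 1 below every control. The first was Bcl2l13 (0.42, SE 0.11, adjusted p = 0.10), whose model overlaps that of Bid on the other strand, so the 2 may share reads. The second was Bok, a relative of BAX, at 20.3, 21.9 and 17.1 FPKM and at 12.1, 16.3 and 10.3 FPKM (-0.60, SE 0.17, adjusted p = 0.12). Of 16 other caspases and execution genes, 0 passed and 4 lay above every control.

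In the remaining pathway lists, 0 of 13 other death receptor genes passed, with 5 above every control (20.8% of all genes tested), and Tradd, an adaptor of the TNF receptor, had the smallest p (0.28, SE 0.08, limma adjusted p = 0.11). Of 5 other IAP genes 0 passed. Naip1, a sensor of bacterial proteins in this family, was at 0.444, 0.593 and 0.496 FPKM and at 2.29, 3.23 and 1.21 FPKM (1.05, SE 0.23, adjusted p = 0.069). It passed with a pseudocount of 0.1 (1.84 on that scale, adjusted p = 0.048), without deficient 3 (adjusted p = 0.012) and without library 3 of both groups (adjusted p = 0.019). Over the fits with a single library left out, the limma adjusted p of Naip1 lay between 0.012 and 0.21. Near-identical Naip copies share sequence, and how their reads were split is not stated, so its level is uncertain. Of 5 other CDK inhibitors 0 passed. Cdkn1c (p57) was at 7.60, 7.46 and 10.2 FPKM and at 4.53, 6.47 and 5.65 FPKM, below every control, opposite in sign to its relative Cdkn1a (-0.52, SE 0.15, adjusted p = 0.13). Of 6 other GADD, BTG and sestrin genes 4 lay above every control and 0 passed. Of 3 FOXO genes tested, 1 rose: Foxo1, a stress-responsive transcription factor that AKT keeps out of the nucleus, went from 22.5 ± 2.7 to 34.1 ± 2.9 FPKM (SD, n = 3 each; 0.58, SE 0.11, adjusted p = 0.041). It passed in 0 of 6 fits with a library left out. Of 10 NF-kB feedback genes 0 passed, with a median of -0.01. Of 21 proliferation genes 0 passed and the median was -0.17, but without library 3 of both groups 16 were called lower and the median was -0.72. That fit was chosen after seeing the data, and 5.24% of all genes were called lower in it. With single libraries left out the median lay between -0.44 (without control 3) and -0.01 (without control 1), with 0 called. Ccnb1 (cyclin B1), which drives entry into mitosis, was at 7.08, 8.09 and 2.94 FPKM and at 3.75, 3.02 and 6.57 FPKM, so libraries 1 and 2 of the groups differed one way and library 3 the other. In the fit with all libraries Ccnd3 (cyclin D3), at 26.7, 26.2 and 25.2 FPKM and at 19.6, 21.8 and 20.5 FPKM, was the closest to passing (-0.32, adjusted p = 0.054). It passed under median-of-ratios scaling (adjusted p = 0.020) and quantile normalization (adjusted p = 0.030). With single libraries left out the limma adjusted p of Ccnd3 lay between 0.072 and 0.20.

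Cell type markers moved between the same groups. All 8 smooth muscle markers fell, with a summed level of 8011 to 9794 FPKM in the controls and 3229 to 3807 FPKM in the libraries labelled deficient. Of 6 epithelium markers tested 2 rose, Krt19 and Cdh1, and the sum of the 7 listed went from between 548.3 and 610.0 to between 702.2 and 919.4 FPKM. Of 5 mast cell markers tested 4 fell, and the sum of 7 went from between 28.8 and 35.5 to between 3.00 and 5.31 FPKM. The sums of 7 macrophage markers (574.6 to 668.4 and 554.5 to 627.5 FPKM) and of 7 endothelium markers (124.5 to 134.8 and 114.3 to 161.6 FPKM) overlapped. The 6 fibroblast markers summed to between 5750 and 6232 FPKM and to between 5137 and 5225 FPKM, and the 7 decidual stroma markers to between 736.2 and 978.0 and between 480.6 and 677.4 FPKM, with 0 called in either list and Dcn in both. These markers did not all move one way: 1 of 6 fibroblast and 2 of 5 decidual stroma markers tested had a positive difference. Pdgfra and Bmp2 lay above every control, and Prl8a2 was at 154.7, 354.6 and 60.4 FPKM and at 5.44, 26.5 and 0.664 FPKM. Lymphocytes and trophoblast were near the floor of detection: 5 T cell markers summed to at most 3.29 FPKM, 7 NK cell markers to at most 7.30, 5 B cell markers to at most 5.06 and 7 trophoblast markers to at most 2.20 FPKM, with Gcm1 listed at 0 in every library. The 7 neutrophil markers summed to between 4.85 and 19.1 FPKM over both groups. The 5 erythroid markers summed to between 2.97 and 6.17 and between 13.2 and 25.6 FPKM, with both globin genes, Hbb-bs and Hba-a1, listed at 0 in every library and Alas2 called higher. Only 1 of the 5, Alas2, reached the level for testing, and it made up most of each sum. Alas2 was at 2.77, 5.98 and 3.69 FPKM and at 23.9, 12.0 and 20.1 FPKM. In such bulk samples, fewer cells of a type and less RNA per cell cannot be told apart. The part of these cell types in the differences of Cdkn1a, Pmaip1, Trp53inp1 and the other members was not tested.

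**Figure D4:**
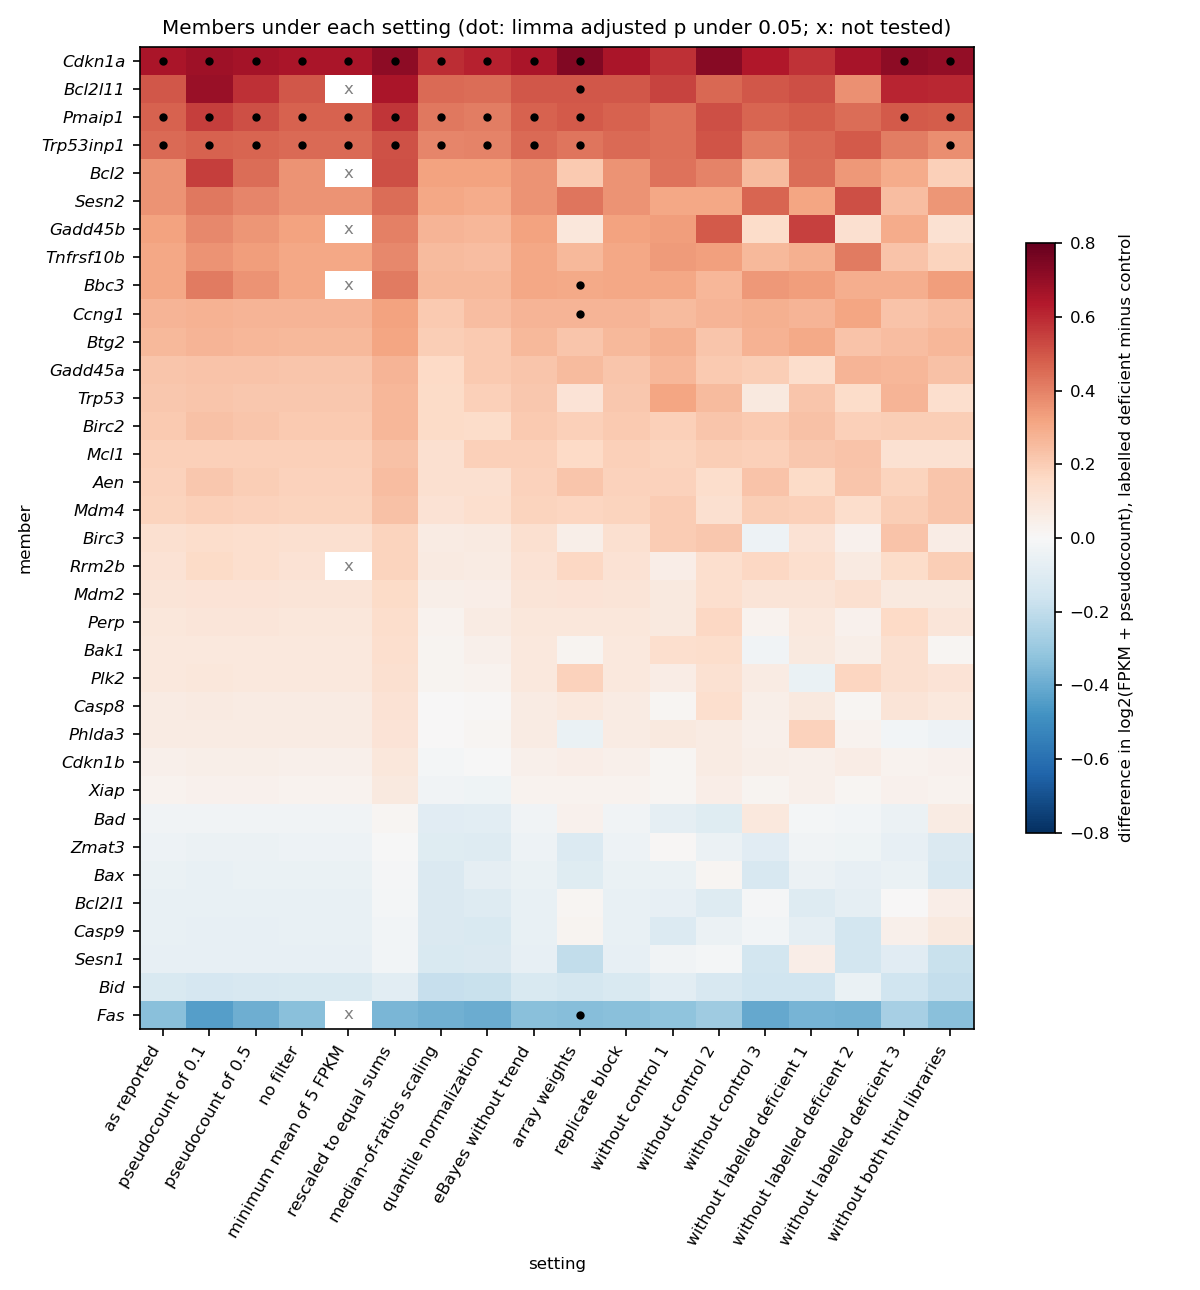
Difference of each member (vertical axis, ordered by the difference as reported) under each processing setting (horizontal axis); colour is the difference in log2(FPKM + pseudocount), labelled deficient minus control, red higher and blue lower, a dot marks a limma adjusted p under 0.05 and an x a gene not tested. Cdkn1a, Pmaip1 and Trp53inp1 carry dots in most of the left columns, none has a dot with the replicate block or without control 1, control 2, control 3, deficient 1 or deficient 2, and with array weights 7 members have one.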

How the data were processed

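RNA sequencing of 6 mouse uterine samples was analysed, 3 control and 3 labelled deficient. The authors deposited FPKM values rounded to 3 decimals, 1 column per sample. All columns were matched to samples by names in the labels. The build mm10 and the tools DESeq2 1.24.0, STAR 2.7.0f and cutadapt 2.7 are named, with no role, per the submitters' processing notes. Counting program, annotation, strandedness and FPKM formula: not given in the sources used here. FPKM does not correct for composition, so strong changes in abundant muscle transcripts can move the values of other genes.

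The 12500 genes whose mean over the 6 samples reached 1 FPKM were tested with limma 3.58.1 in R 4.3.3 (eBayes with trend) on log2(FPKM + 1), with no covariate and a Benjamini-Hochberg adjusted p threshold of 0.05. The code was tested on simulated data. Exact permutation tests used scipy 1.17.1, positions GENCODE M21 and promoters RefSeq on GRCm38.p6, with a window for 29 of 35 members. Pmaip1, Trp53inp1, Tnfrsf10b, Zmat3, Perp and Rrm2b had none. The members, lists and tests were chosen with earlier results of these data known. By rule, values per sample are given for members past the test, separated or at an unadjusted p under 0.05, and for Trp53, Mdm2, Cdkn1a, Bax and Bcl2, and up to 4 genes per other list are named. Values per sample of Sesn2 and Birc3 and the CATG spacing were added after values were seen. Alternatives were other pseudocounts (0.1, 0.5), filters (none, 5 FPKM) and scalings, no trend, array weights, the replicate block, each library left out and, chosen after seeing the data, library 3 of both groups left out.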

Additional observations from a re-analysis of the deposited data

How the results depend on the processing

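Over 17 alternatives, 23 of 35 members kept the sign of their difference. The count of 417 genes called was 1770 with array weights, 143 with the replicate block, 1275 without library 3 of both groups and between 99 and 525 with single libraries left out. The 3 members called became 7 with array weights (Bbc3, Bcl2l11, Ccng1 and Fas were added), 0 with the replicate block and between 0 and 2 with single libraries left out, and stayed the same 3 under every other alternative. Members called were 0 without control 1, control 2, control 3, deficient 1 or deficient 2. In the fit with the replicate block, 11 members were higher and 1 lower at an unadjusted p under 0.05. The share of all genes at that threshold is not available for this fit, so the count cannot be weighed. Of the pathway list genes, 18 were called with array weights, 1 with the replicate block, 1 with no filter, 31 without library 3 of both groups (7 higher and 24 lower, 16 of them proliferation genes), and between 1 and 3 with single libraries left out, against 2 (1 higher and 1 lower). The median difference of the members, 0.125, was 0.152 and 0.135 with pseudocounts of 0.1 and 0.5, 0.105 with a minimum mean of 5 FPKM (29 members tested), 0.181 after rescaling to equal sums, 0.0695 with median-of-ratios scaling, 0.0704 with quantile normalization, 0.112 with array weights, and between 0.105 and 0.177 with single libraries left out. The median of all genes was 0.00637 with median-of-ratios scaling and 0.109 after rescaling, so it moved with that of the members. All calls over the 12500 genes split into 168 higher and 249 lower, and into 218 and 211 after rescaling, 125 and 379 with median-of-ratios scaling and 131 and 336 with quantile normalization.

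The sign turned for 12 members with small differences. With array weights Bcl2l1 was at 0.0135, Bad at 0.0323, Casp9 at 0.0207 and Phlda3 at -0.0524. Without library 3 of both groups Bcl2l1 was at 0.0506, Bad at 0.0652, Casp9 at 0.0805 and Phlda3 at -0.0436. Bad was at 0.0147 after rescaling. Cdkn1b was at -0.0173 and -0.00391 and Xiap at -0.0255 and -0.0346 with median-of-ratios scaling and quantile normalization. With single libraries left out, the ranges were -0.128 to 0.0129 for Bax, -0.0259 to 0.142 for Bak1, -0.103 to 0.00215 for Bcl2l1, -0.0999 to 0.0856 for Bad, -0.147 to 0.0428 for Casp9, -0.149 to 0.05003 for Sesn1, -0.0919 to 0.0103 for Zmat3, -0.0225 to 0.182 for Phlda3, -0.0543 to 0.171 for Plk2, -0.0403 to 0.227 for Birc3. The cause of these changes was not tested. Same-numbered libraries did not deviate together more than others. Correlations of deviations from the group means over genes were -0.14, 0.08 and -0.13, and between -0.13 and 0.20 for different numbers. With 3 libraries per group this check cannot exclude a pairing or a shared batch. The replicate numbers were taken as names of samples, with the replicate block as an alternative. The table gives no depth per library, which limits what can be said of genes near 1 FPKM such as Bcl2.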
